A study of Mus musculus with 23 samples.

Results

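Mono(2-ethylhexyl) phthalate (MEHP) and dioctyl maleate (DOM) were compared with each other in TM4 cells, an immortalized Sertoli cell line from the immature mouse testis. The arrays were chosen by their titles: the 4 arrays of MEHP and the 4 arrays of DOM, 8 of the 23 arrays in the series. Each culture of TM4 cells had received its compound at 100 µM in 1% DMSO for 48 hr. The 4 arrays of the vehicle, DMSO at 1% for 48 hr, took no part in the test. They are given beside it, so that a reader can see which compound had left the vehicle level. The cells of all 3 groups are one line grown alone, so germ cells and the other cells of the seminiferous tubule are not part of the model.

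MEHP is the monoester that forms when an ester bond of the plasticizer DEHP is cleaved. It carries an aromatic ring, a free carboxylic acid and a branched chain. DOM is a diester of maleic acid, with an octyl chain on each acid group, a carbon-carbon double bond between them, and no ring. Phthalate monoesters are known as ligands of the peroxisome proliferator-activated receptors (PPARs), nuclear receptors that turn on genes of fatty acid use. Molecules with an electron-poor double bond can react with thiols, among them glutathione and the cysteines of KEAP1, which holds the transcription factor NRF2 in check. NRF2 turns on genes of glutathione and heme metabolism through the antioxidant response element. Sertoli cells nurse germ cells, secrete inhibin and stem cell factor, and stop dividing when they mature, whereas TM4 cells keep dividing. These statements are background and were not tested here.

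The level of a gene is the log2 of the processed signal of its brightest probe, set relative to the 75th percentile of the array, so a level of 0 equals that percentile and a difference of 1 is 2-fold. All differences are DOM minus MEHP on that scale with their standard error, so a positive value is higher with DOM. A gene was called when the adjusted p of limma was below 0.05 and the difference exceeded 1.5-fold. The 75th percentile of the raw signal ran from 237.4 to 326.8 on the MEHP arrays and from 257.7 to 350.7 on the DOM arrays, and no spot was saturated. Arrays of one compound correlated at 0.991 or more over the tested probes. The 8 arrays lay on 3 slides, each of which held same-numbered arrays of both compounds. MEHP always lay in rows 1 and 3 and DOM in rows 2 and 4, so the row of the slide and the compound cannot be told apart. The replicate 1 arrays of both compounds stood apart for matrix genes, and results on these genes are also given without them. On the fourth DMSO array 43 tested genes lay more than 3 log2 units below the other 3 DMSO arrays, against 2 genes on MEHP array 3 and none on the other MEHP and DOM arrays. Of these 43 genes, 10 were called between the compounds.

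DOM and MEHP left the TM4 cells with different expression of 2071 of the 11919 tested genes, 17.4%. The number higher with DOM was 974, or 8.17%, and the number higher with MEHP was 1097, or 9.2%. These percentages are the background against which the gene groups below are read. Among the called genes, 302 were more than 2-fold higher with DOM and 477 more than 2-fold higher with MEHP, and the median size of a called difference was 1.82-fold. The median difference over all tested genes was -0.02. The 4 arrays of one compound lay entirely beyond the 4 of the other for 1964 of the called genes, while the arrays did not overlap for 41.3% of all tested genes. On all 3 slides 2066 of the 2071 called genes kept the sign of their difference.

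**Figure D1:**
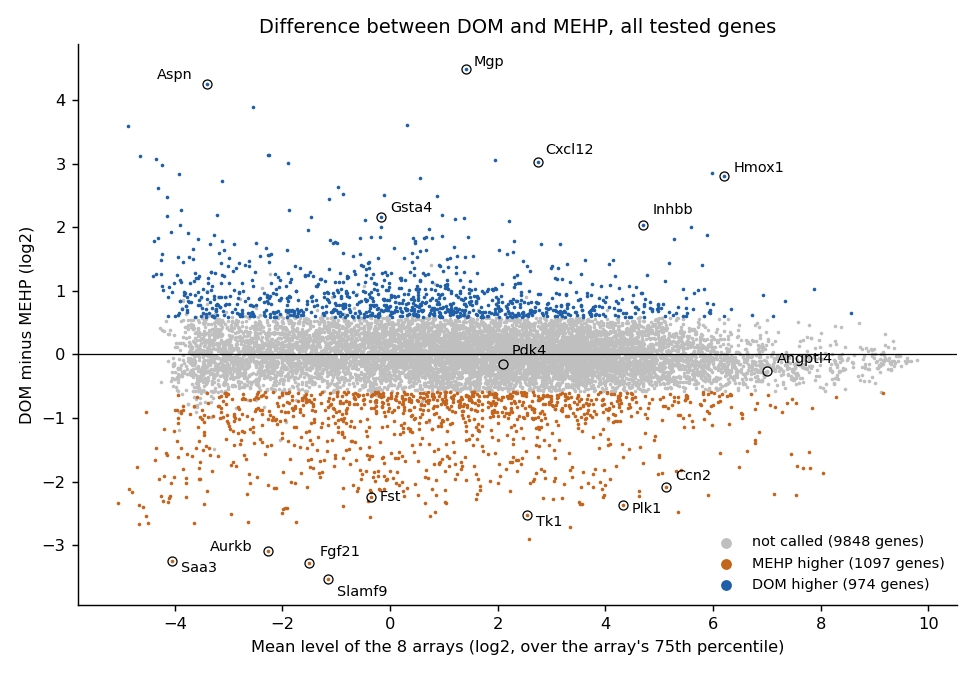
Difference between DOM and MEHP (log2, vertical axis) against the mean level over the 8 arrays (log2 over the 75th percentile, horizontal axis) for the 11919 tested genes, with called genes in colour and circles around named genes. Mgp lies at the top with a difference of 4.48, Slamf9 at the bottom with -3.54, and Pdk4 and Angptl4 lie near 0.

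The vehicle arrays were set beside both compounds. For 891 of the 974 genes higher with DOM and for 1020 of the 1097 genes higher with MEHP, the mean of the DMSO arrays was nearer to MEHP than to DOM. The DMSO arrays served both differences, so these shares are a description. Of the 974 genes, 675 were called above DMSO with DOM alone, 14 below DMSO with MEHP alone, 14 above DMSO with both compounds, 3 above with DOM and below with MEHP, and 268 against DMSO with neither. Of the 1097 genes, 824 were called below DMSO with DOM alone, 20 above DMSO with MEHP alone, 13 below DMSO with both, 2 in opposite directions, and 238 with neither. Without the fourth DMSO array the counts for DOM alone were 695 and 839 and those for MEHP alone 10 and 14. The direct comparison was thus mostly a difference of DOM from a state close to the vehicle.

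Genes of cell division were high with MEHP and low with DOM. All 30 tested genes of mitosis were higher with MEHP, and their median difference was -2.05. Beside DMSO the same genes had a median of 0.18 with MEHP and of -1.91 with DOM, and 29 of the 30 were called below DMSO with DOM and none with MEHP. In DNA replication 34 of 45 genes were higher with MEHP and none with DOM, with a median of -1.01. Of 23 tested regulators of the G1 phase 7 were higher with MEHP and none with DOM. All these shares exceed the 9.2% of all genes that were higher with MEHP. In RNA from whole cultures, fewer dividing cells and less RNA per dividing cell cannot be told apart.

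Plk1, the kinase that drives entry into mitosis, lay at 5.90, 5.35, 5.38 and 5.41 on the MEHP arrays, at 3.54, 2.97, 3.58 and 2.46 on the DOM arrays and at 5.78, 4.99, 5.25 and 5.19 on the DMSO arrays. The DOM arrays were all below the others, and the MEHP and DMSO arrays overlapped. The difference was -2.37 ± 0.25 (5.18-fold, adjusted p = 0.000249). Bub1b, a kinase of the spindle checkpoint, lay between 2.05 and 2.31 with MEHP and between -0.56 and 0.15 with DOM (-2.32 ± 0.16), and Cenpa, the histone that marks the centromere, differed by -2.32 ± 0.20. Aurkb, the kinase of the chromosomal passenger complex, had the largest difference of the list (-3.10 ± 0.70) but also the widest spread, with DOM arrays at -4.42, -3.34, -1.95 and -5.60, and with normexp background correction its difference was -1.40. Without replicate 1 of both compounds Aurkb was no longer called at a difference of -2.79. Aurkb was well above background on 3 of the 4 DOM arrays and entered the test through the MEHP arrays alone. Cdca3, a trigger of mitotic entry, ran from 4.44 to 5.13 with MEHP and from 0.93 to 3.06 with DOM.

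In the replication group Tk1, which salvages thymidine for DNA synthesis, lay at 4.37, 3.68, 3.75 and 3.39 with MEHP and at 1.83, 1.08, 1.92 and 0.26 with DOM. DMSO arrays gave 3.76, 3.29, 3.43 and 2.82, which overlapped MEHP. Its difference was -2.52 ± 0.36 (adjusted p = 0.000987). Rrm2, a subunit of ribonucleotide reductase, differed by -2.04 ± 0.25, Gmnn, the inhibitor of replication licensing, by -1.97 ± 0.40 and Gins1, a subunit of the replicative helicase, by -1.94 ± 0.20. Mcm5, a further subunit of that helicase, lay between 4.40 and 4.78 with MEHP and between 2.21 and 3.0 with DOM (-1.84 ± 0.17). Among G1 regulators the repressors E2f8 (-2.13 ± 0.30) and E2f7 (-1.69 ± 0.25), the activator E2f2 (-1.37 ± 0.16) and cyclin D1, Ccnd1 (-1.48 ± 0.23), were lower with DOM. Cdkn1a, the p53-induced inhibitor of cyclin-dependent kinases, was not called, with a difference of -0.21 and a 95% interval of ± 0.20.

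The promoters of these genes were read for the motifs of the factors that serve them, as a description. Promoters of 300 bases, 250 before and 50 after the start, were taken from RefSeq (GRCm38.p6) for 28 of the 34 called replication genes. An E2F site, TTTCCCGC or TTTGGCGC on either strand, was present in 35.7% of these, in 3.41% of all 9539 tested genes with a promoter and in none of the 24 mitosis promoters. A CCAAT box on either strand was present in 79.2% of the mitosis promoters, in 64.3% of the replication promoters and in 43.4% of those of all tested genes. The letters CCAAT are not contained in either E2F site. The promoter of Mcm5 is shown because it holds both motifs and that of Bub1b because it has a CCAAT box alone, each in capitals, with the opposite strand's letters where the match lies on that strand.
Mcm5, chr8:75109259-75109558, plus strand: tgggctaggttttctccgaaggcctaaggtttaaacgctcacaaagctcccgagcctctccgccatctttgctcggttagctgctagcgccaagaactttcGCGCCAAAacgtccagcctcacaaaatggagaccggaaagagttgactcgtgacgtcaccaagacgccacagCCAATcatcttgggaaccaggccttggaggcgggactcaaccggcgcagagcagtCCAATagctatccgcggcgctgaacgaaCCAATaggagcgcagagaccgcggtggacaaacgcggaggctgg
Bub1b, chr2:118597961-118598260, plus strand: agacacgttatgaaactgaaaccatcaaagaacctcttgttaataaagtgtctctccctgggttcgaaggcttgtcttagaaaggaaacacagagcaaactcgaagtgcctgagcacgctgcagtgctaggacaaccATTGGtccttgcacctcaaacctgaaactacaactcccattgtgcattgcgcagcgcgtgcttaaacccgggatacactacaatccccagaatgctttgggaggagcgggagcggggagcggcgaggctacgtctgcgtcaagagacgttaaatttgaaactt

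Histone genes were grouped after their values had been seen. Of 48 tested histone genes 32 were higher with MEHP and 5 higher with DOM. The former included H1f5, a linker histone, at 4.39, 3.94, 3.94 and 3.88 with MEHP and at 1.26, 1.25, 2.01 and 0.01 with DOM (-2.91 ± 0.36), and the dim H3c8 (-2.66 ± 0.19, -0.80 with normexp). The DMSO mean of H1f5 was 0.05 below that of MEHP. Against them stood H3c15 (3.15 ± 0.25, 1.44 with normexp) and H2ac18, whose DOM arrays ran from 3.14 to 3.87 and whose other arrays did not exceed 1.27 (3.06 ± 0.19). H2bc4 (1.78), H1f2 (1.20) and H2bc21 (1.07) were also higher with DOM, the last dim and not called with normexp at 0.27. H3c15 was well above background on 3 of the 4 MEHP arrays and entered the test through the DOM arrays alone. H3c8 was well above background on 1 of the 4 DOM arrays and entered it through the MEHP arrays alone. Histone genes are near-identical copies, and a probe may bind transcripts of more than 1 of them.

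**Figure D2:**
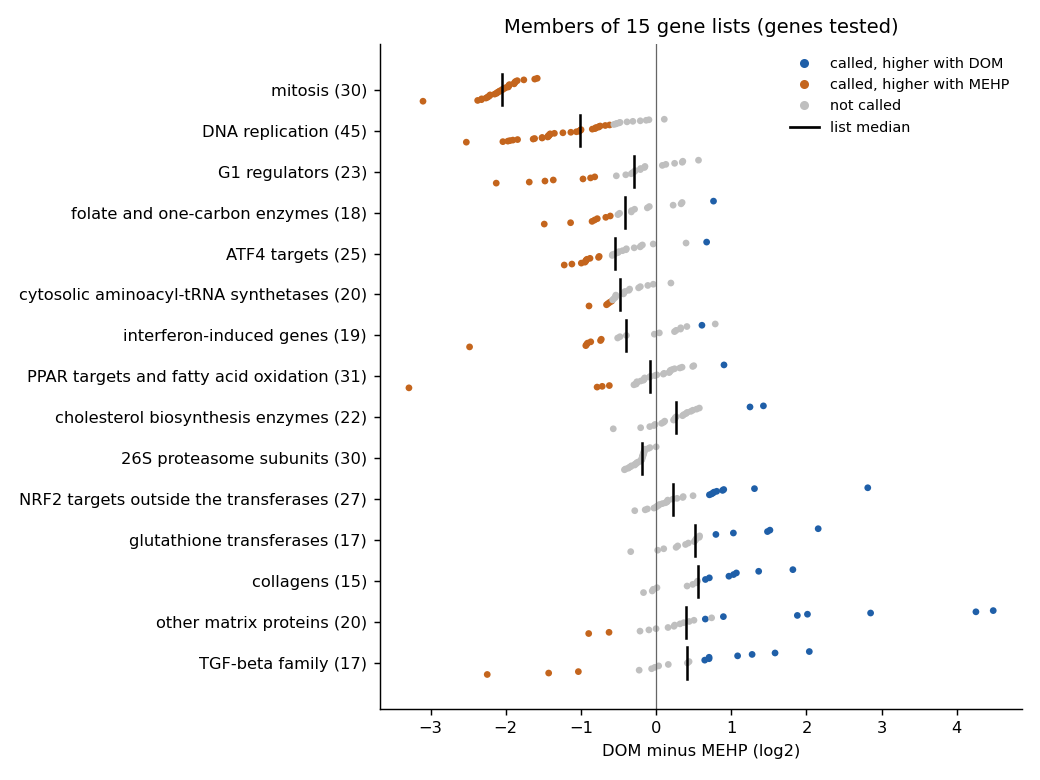
DOM minus MEHP (log2, horizontal axis) of each tested gene in 15 lists, with the number of genes in parentheses, called genes in colour and the list median as a black line. The mitosis genes all lie left of 0 around -2.05, the replication genes spread from -2.52 to 0.11, and the glutathione transferases, collagens and NRF2 targets reach to the right.

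A part of the NRF2 targets and of the glutathione transferases was higher with DOM. Of 27 tested NRF2 targets outside the glutathione transferases 9 were higher with DOM and none with MEHP, and of 17 transferases 5 were higher with DOM and none with MEHP, where 8.17% of all genes were higher with DOM. The medians were 0.22 and 0.52. Against DMSO the 27 NRF2 targets had 9 calls with DOM and none with MEHP, and the transferases 10 and 1. The transferase count was 9 with quantile normalization and 8 without DOM replicate 3, so several members lay near the limit of 1.5-fold.

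Hmox1, the enzyme that opens heme to release iron and carbon monoxide, lay at 4.86, 4.86, 4.60 and 4.90 with MEHP, at 7.84, 7.63, 7.23 and 7.78 with DOM and at 4.34, 4.33, 4.34 and 4.52 with DMSO. DOM arrays were more than 2 units above all others. The difference was 2.82 ± 0.14 (7.04-fold, adjusted p = 3.63e-05). Nqo1, a quinone reductase, lay at 0.60, 0.24, 0.23 and 0.22 with MEHP and at 2.03, 1.49, 1.59 and 1.41 with DOM (1.31 ± 0.15). Abcc4, an exporter of organic anions and conjugates, differed by 0.90 ± 0.11 with neither compound called against DMSO. Pgd, which makes NADPH in the pentose phosphate pathway, differed by 0.88 ± 0.11. Gclm, the modifier subunit of the enzyme that starts glutathione synthesis, was higher with DOM (0.77 ± 0.17), whereas the catalytic subunit Gclc was not called (0.04, 95% interval ± 0.22). The transcript of NRF2 itself, Nfe2l2, was not called (-0.14, 95% interval ± 0.24), and of 9 tested NRF2 regulators only Maff was called, higher with MEHP (-0.73), a call that was lost when MEHP replicate 1 or 2 or DOM replicate 2 or 3 was left out.

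Gsta4, the transferase for 4-hydroxynonenal, lay at -1.54, -1.26, -1.15 and -1.05 with MEHP, at 1.61, 0.52, 0.29 and 1.21 with DOM and at -2.29, -1.80, -1.71 and -1.66 with DMSO. MEHP arrays thus lay above the DMSO arrays without a call (0.61) and DOM arrays above both groups. Its difference between the compounds was 2.16 ± 0.27 (4.46-fold, adjusted p = 0.000536). The microsomal Mgst1 differed by 1.51 ± 0.14, and the mu class members Gstm1 by 1.48 ± 0.18, Gstm4 by 1.03 ± 0.12 and Gstm3 by 0.80. Genes of the mu class are close copies, so their probes may share signal. Slc40a1, ferroportin, the exporter of iron, ran from 1.74 to 2.51 with DOM and from -1.89 to -1.03 with MEHP (3.61 ± 0.20, 12.2-fold), and the DMSO arrays lay between -1.92 and -0.35. Tfrc, the receptor that takes up transferrin iron, was higher with DOM than with MEHP as well (1.35 ± 0.14). Here MEHP was called below DMSO (-0.81), and DOM lay above DMSO without a call (0.54, or 0.63 without the fourth DMSO array).

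A core of the antioxidant response element, TGACNNNGC on either strand, was found in 4 of the 7 promoters available for the 9 called NRF2 targets (57.1%), in 1 of 4 for the called transferases and in 16.7% of the promoters of tested genes. No match was found for Nqo1 in this window, which says only that these letters are not in it. The promoter of Gclm is shown with its match, on the opposite strand, in capitals.
Gclm, chr3:122245307-122245606, plus strand: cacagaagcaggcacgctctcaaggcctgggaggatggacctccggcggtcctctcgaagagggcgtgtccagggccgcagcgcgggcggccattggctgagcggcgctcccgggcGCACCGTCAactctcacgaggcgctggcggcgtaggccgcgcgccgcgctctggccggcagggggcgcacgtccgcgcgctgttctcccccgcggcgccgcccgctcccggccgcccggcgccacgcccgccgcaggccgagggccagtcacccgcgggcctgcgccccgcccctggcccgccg

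Most genes of cholesterol synthesis were called above DMSO with both compounds. Among the genes tested, 81 were called against DMSO in the same direction with both compounds and not called between them, 66 of them higher and 15 lower. Of 22 enzymes of cholesterol synthesis 16 were called above DMSO with MEHP and 19 with DOM. Between the compounds 2 were called, both higher with DOM, and the list's median was 0.26, with 17 of the 22 above 0. With quantile normalization 5 were called, and without MEHP replicate 1 or DOM replicate 4 it was 4. Of 31 PPAR targets and genes of fatty acid oxidation 4 were higher with MEHP and 1 with DOM, with a median of -0.08, where 17.4% of all genes were called. Against DMSO 6 of the 31 were higher with MEHP, and 5 were higher and 3 lower with DOM. Of 14 PPAR and RXR receptors and coregulators none was called, with 8 above 0.

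Pdk4, the kinase that turns pyruvate away from oxidation, lay at 2.13, 2.18, 2.15 and 2.22 with MEHP, at 2.26, 1.76, 1.43 and 2.60 with DOM and at -1.47, -1.47, -1.54 and -1.30 with DMSO. Both compounds were more than 2 units above the vehicle, and the arrays of one compound overlapped those of the other. The difference was -0.16 with a 95% interval of ± 0.50 (adjusted p = 0.633). Angptl4, a secreted inhibitor of lipoprotein lipase, lay at 6.89, 7.27, 7.21 and 7.18 with MEHP and at 6.74, 7.07, 6.91 and 6.80 with DOM, against 3.21 to 4.30 with DMSO. Its difference was -0.25 with an interval of ± 0.26 (adjusted p = 0.115). A missing call does not show that the compounds act alike, and the intervals give the differences that these arrays leave possible.

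Cpt1a, which admits long-chain fatty acids to the mitochondrion, was higher with DOM (0.90 ± 0.14, adjusted p = 0.00157), with MEHP arrays from 3.40 to 3.63, DOM arrays from 4.03 to 4.68 and DMSO arrays from 2.11 to 2.67. The opposite order was seen for Acadl, the long-chain acyl-CoA dehydrogenase (-0.72 ± 0.11), which MEHP raised above DMSO by 0.68 and DOM did not. Fgf21, a hormone of the fasting response, lay at 0.01, -0.46, 0.57 and 0.43 with MEHP and at -3.06, -3.30, -2.69 and -3.56 with DOM (-3.29 ± 0.25), and its DMSO arrays lay with MEHP. Fgf21 is also known as a target of ATF4. Acot2, a mitochondrial acyl-CoA thioesterase (-0.78 ± 0.16), and Acsl1, which activates long-chain fatty acids (-0.62 ± 0.09), were likewise below DMSO with DOM alone. The receptors themselves differed little, with 0.05 for Ppara (95% interval ± 0.42), 0.14 for Ppard (± 0.21) and -0.06 for Pparg (± 0.29). The fourth DMSO array read -2.22 for Ppard against 2.12 to 2.36 on the others, so no difference from the vehicle is given for it.

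Tm7sf2, a sterol reductase late in cholesterol synthesis, lay between 3.24 and 3.46 with MEHP, between 4.64 and 5.05 with DOM and between 2.44 and 2.91 with DMSO (1.43 ± 0.11, adjusted p = 9.45e-05). Hsd17b7, the ketoreductase of the same stretch of the pathway, differed by 1.25 ± 0.15. Mvd, which makes isopentenyl diphosphate, lay at 4.55, 4.37, 4.04 and 4.36 with MEHP and at 5.16, 5.01, 4.64 and 4.82 with DOM, a difference of 0.58 ± 0.14 that fell just short of 1.5-fold (adjusted p = 0.0134). Pmvk, phosphomevalonate kinase, differed by -0.21 (95% interval ± 0.35) and Fdps, farnesyl diphosphate synthase, by -0.08 (± 0.22), and these were 2 of the 5 enzymes of the list that lay below 0. None of 13 genes of sterol sensing, uptake and efflux was called between the compounds. Of 14 genes of fatty acid synthesis 2 were higher with DOM: Elovl6, which elongates fatty acids, differed by 0.69 ± 0.12 with both compounds above DMSO. Acacb, the acetyl-CoA carboxylase of mitochondria, differed by 0.68 ± 0.17, a call lost without DOM replicate 4. A sterol response element, TCACNCCAC on either strand, was found in 1 of 17 available promoters of the cholesterol enzymes and in 1.44% of those of tested genes. The match was in Hmgcs1, which condenses acetyl units for mevalonate and was above DMSO by 0.78 with MEHP and by 1.18 with DOM, and its promoter is shown with the element in capitals.
Hmgcs1, chr13:119690101-119690400, plus strand: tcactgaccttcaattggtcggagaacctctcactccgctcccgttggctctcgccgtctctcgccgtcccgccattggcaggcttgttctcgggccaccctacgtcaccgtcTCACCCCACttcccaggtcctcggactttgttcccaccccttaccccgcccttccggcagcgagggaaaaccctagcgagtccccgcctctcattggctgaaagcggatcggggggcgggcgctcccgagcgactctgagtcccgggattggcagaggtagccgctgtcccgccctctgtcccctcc

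**Figure D3:**
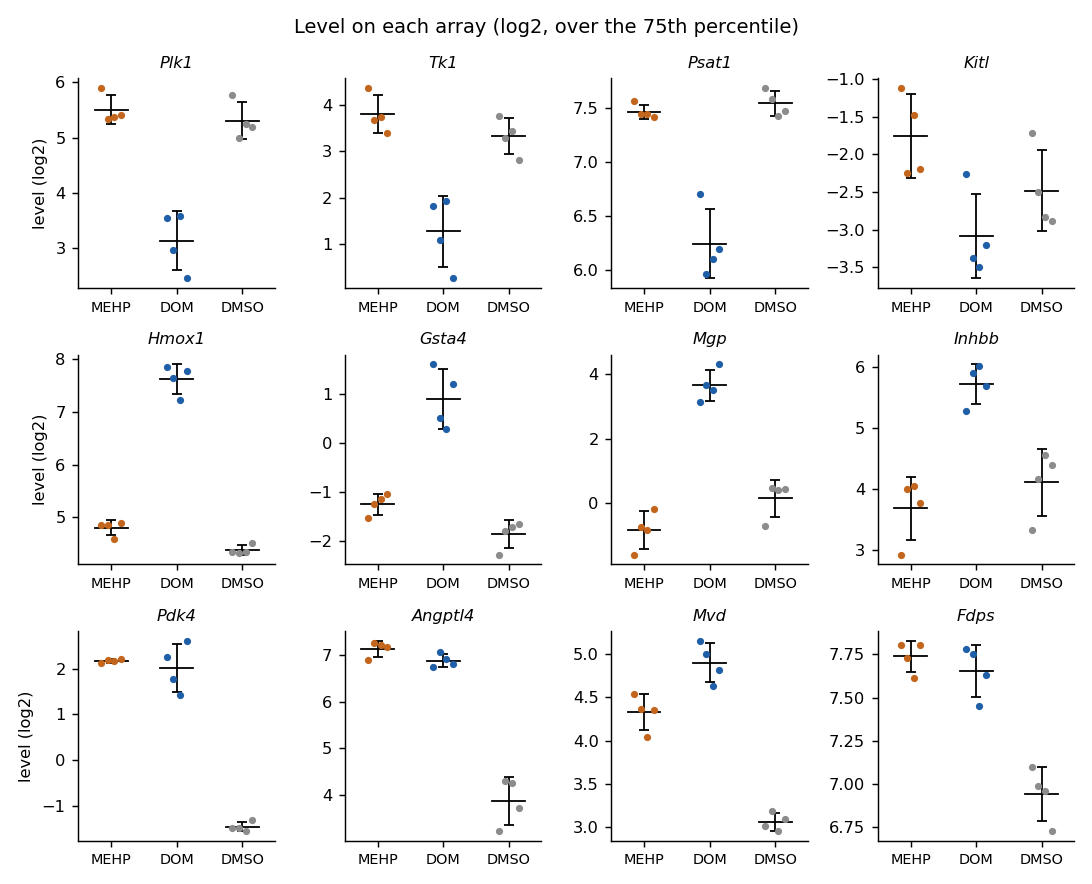
Levels (log2 over the 75th percentile, vertical axes) on each MEHP, DOM and DMSO array, with mean and SD (n = 4 per group) as black bars. In the top row the DOM arrays lie below the MEHP arrays for Plk1, Tk1, Psat1 and Kitl, in the middle row they lie above them for Hmox1, Gsta4, Mgp and Inhbb, and in the bottom row both compounds lie above DMSO for Pdk4, Angptl4, Mvd and Fdps.

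Many genes of amino acid supply were lower with DOM than with MEHP. Beside DMSO the medians with MEHP were -0.17 for ATF4 targets, -0.145 for folate enzymes and -0.19 for tRNA synthetases, with no gene called. With DOM they were -0.67, -0.435 and -0.62. Of 25 tested targets of ATF4, the transcription factor of amino acid shortage, 10 were higher with MEHP and 1 with DOM, with a median of -0.54 and 23 of the 25 not above 0. Of 18 folate and one-carbon enzymes 7 were higher with MEHP and 1 with DOM. All but 1 of the 20 cytosolic aminoacyl-tRNA synthetases lay below 0 with a median of -0.49, but only 5 passed 1.5-fold, a count that fell to 1 with quantile normalization and to 3 without DOM replicate 3.

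Psat1, an enzyme of serine synthesis, lay at 7.56, 7.44, 7.44 and 7.41 with MEHP, at 6.70, 5.96, 6.10 and 6.19 with DOM and at 7.68, 7.58, 7.42 and 7.47 with DMSO (-1.22 ± 0.15). MEHP and DMSO arrays overlapped and DOM lay below both. Shmt2, the mitochondrial serine hydroxymethyltransferase, differed by -1.49 ± 0.10 (adjusted p = 6.08e-05), the cytosolic Shmt1 by -1.14 ± 0.10, and the folate enzymes Mthfd1 by -0.85 ± 0.12 and Mthfd1l by -0.82 ± 0.08. The stress factor Atf3 (-1.12 ± 0.13), the pseudokinase Trib3 (-0.99 ± 0.16) and the serine phosphatase Psph (-0.95 ± 0.09) were also lower with DOM. The valine synthetase gene Vars (-0.89 ± 0.12) led its group, and Nars (-0.62 ± 0.08), Sars (-0.64 ± 0.09) and Lars (-0.66 ± 0.14), for asparagine, serine and leucine, lay just beyond the limit. The last pair lost its calls without DOM replicate 3 and DOM replicate 4, respectively. For Psph the MEHP arrays (5.90 to 6.13) all lay below the DMSO arrays (6.36 to 6.65), without a call. The same held for Shmt2, Mthfd1l, Sars and Lars, while MEHP and DMSO arrays overlapped for Shmt1, Mthfd1, Atf3, Trib3, Vars and Nars. Atf4 itself fell just short of the limit of 1.5-fold (-0.58 ± 0.10, adjusted p = 0.00243). Slc38a2, a transporter of neutral amino acids, was the exception, with MEHP arrays from 5.49 to 5.69 and DOM arrays from 6.09 to 6.52 (0.67 ± 0.11). Mtrr, which reactivates methionine synthase, was the folate gene higher with DOM (0.76 ± 0.14), but it was dim, and with normexp its difference was 0.16. It was well above background on 2 of the 4 MEHP arrays and entered the test through the DOM arrays alone.

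Few genes of protein quality control were called. None of 30 proteasome subunits was called in either direction, though 29 lay below 0 and the median was -0.19, and in 11 genes of the cytosolic heat shock response none was called. In the heat shock list 2 genes were higher with DOM with quantile normalization or without DOM replicate 3. Of 21 endoplasmic reticulum chaperones and genes of the unfolded protein response 1 was called, Herpud1, a component of protein degradation from that compartment (-0.81 ± 0.10). In glycolysis 5 of 26 genes were higher with MEHP, led by the hexokinase Hk2 (-1.67 ± 0.12, with MEHP from 1.25 to 1.46 and DOM from -0.64 to -0.21). Aldoc (-1.44 ± 0.14, dim and -0.72 with normexp), Pfkp (-0.97 ± 0.11) and Pgk1 (-0.83 ± 0.10) followed. In that group 1 gene was higher with DOM, the pyruvate dehydrogenase kinase Pdk2 (1.25 ± 0.13). Of 15 reference genes Tfrc and Pgk1 were called. Hprt, the purine salvage enzyme often used to scale transcripts, was -0.52 ± 0.12 (adjusted p = 0.00853), with MEHP arrays from 5.25 to 5.54 and DOM arrays from 4.69 to 5.14, under the limit of 1.5-fold.

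Many genes of the extracellular matrix were higher with DOM. Of 15 tested collagens 7 were higher with DOM and none with MEHP, with a median of 0.55. The median of the same genes beside DMSO was -0.30 with MEHP and 0.51 with DOM. With DOM 5 were called above DMSO and 1 below it, and with MEHP 1 was called below it. In other matrix proteins 7 of 20 were higher with DOM and 2 with MEHP, and in matrix metalloproteinases and their inhibitors 6 of 13 with DOM and 1 with MEHP, Timp3 (-2.02), whose call was lost with normexp. Beside DMSO the medians of the other matrix proteins were -0.26 with MEHP and 0.14 with DOM, and those of the metalloproteinases and inhibitors 0.03 and 0.62. Without replicate 1 of both compounds the counts higher with DOM were 7 collagens, 7 other matrix proteins and 5 metalloproteinases and inhibitors. The summed linear signal of the 5 peritubular myoid markers, cells that also make matrix, ran from 26.8 to 29.2 with MEHP, from 38.8 to 52.6 with DOM and from 32.9 to 42.0 with DMSO. Of these markers Acta2, Cnn1 and Actg2 were above background on all 8 arrays and Myh11 on none. The sum is led by its brightest members, and the markers went opposite ways, with Acta2 higher with DOM (0.80) and Cnn1 higher with MEHP (-1.70). The part of that sum in the matrix result was not tested.

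Mgp, the matrix Gla protein, an inhibitor of calcification, lay at -1.59, -0.72, -0.84 and -0.18 with MEHP, at 3.13, 3.67, 3.51 and 4.30 with DOM and at -0.70, 0.49, 0.42 and 0.43 with DMSO. The groups did not overlap between the compounds, and the first array of each group was the lowest. The difference, 4.48 ± 0.32, was 22.4-fold and the largest of any called gene (adjusted p = 8.14e-05). Aspn, the small leucine-rich proteoglycan asporin, stayed below the limit of well above background on all 4 MEHP arrays and lay at -2.47, -0.82, -0.39 and -1.40 with DOM, which is at least 9.65-fold higher. It entered the test through the DOM arrays alone, and with normexp its measured difference was 1.25. DMSO arrays gave -3.55, -2.85, -2.05 and -2.83 for Aspn, and MEHP was called below and DOM above them. Such a lower limit sets the mean of the brighter group against the lowest signal above background on the dim arrays. This limit holds for the processed signal, and a normexp difference can be smaller.

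Col3a1, the fibrillar collagen of soft tissues, lay at 3.81, 4.52, 4.54 and 4.57 with MEHP, at 5.15, 6.58, 6.72 and 6.27 with DOM and at 4.38, 5.29, 5.40 and 5.27 with DMSO (1.82 ± 0.33). Replicate 1 was the lowest in all 3 groups. Col5a2 (1.36 ± 0.14), Col6a1 (1.03 ± 0.20) and Col5a1 (0.97 ± 0.22) were also higher with DOM. Thbs2, an antiangiogenic thrombospondin, ran from 3.66 to 4.94 with MEHP and from 6.82 to 7.73 with DOM (2.85 ± 0.30), and the first 3 DMSO arrays ran from 4.57 to 5.67 while the fourth read -2.32. Ogn, the proteoglycan osteoglycin, differed by 2.01 ± 0.24. The metalloproteinases Adamts1 (1.62 ± 0.14), Adamts2, which trims procollagen (1.23 ± 0.16), and the gelatinase Mmp2 (0.75 ± 0.12), as well as the inhibitor Timp2 (1.03 ± 0.11), were higher with DOM. The glycoprotein gene Fbln1 (-0.90 ± 0.13) and the proteoglycan gene Vcan (-0.63 ± 0.16) were higher with MEHP, but neither was called with normexp.

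**Figure D4:**
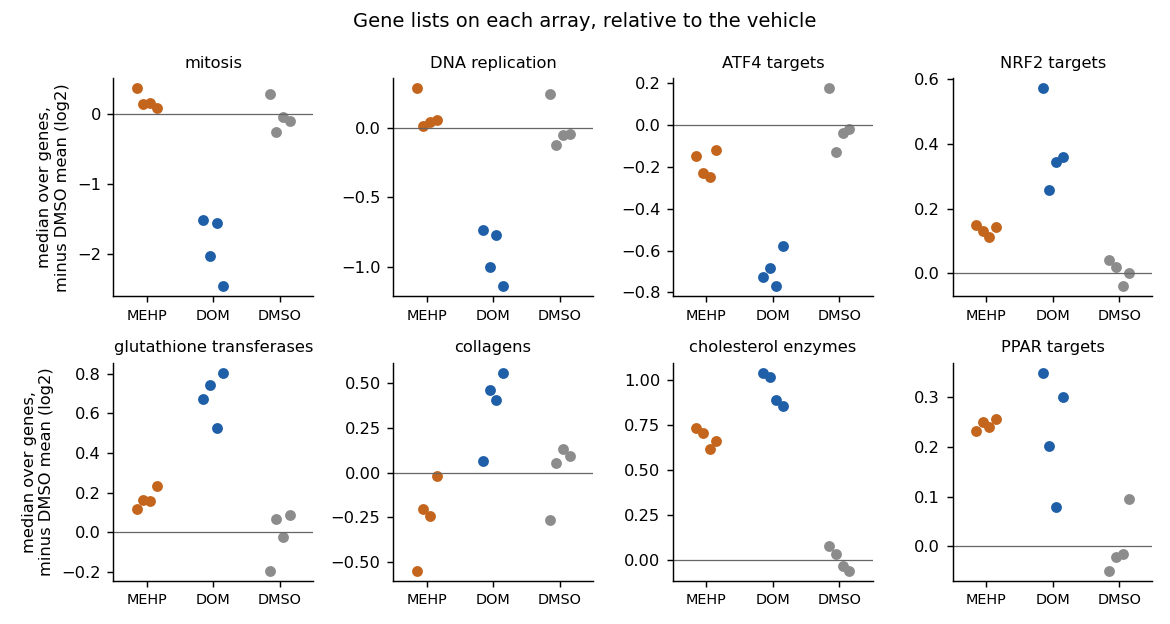
Median over the genes of 8 lists on each array, after the mean of the 4 DMSO arrays was subtracted from each gene (log2, vertical axes); each point is 1 array. Mitosis lies between 0.08 and 0.37 on the MEHP arrays and between -2.45 and -1.52 on the DOM arrays, the collagens lie below 0 with MEHP and above 0 with DOM, and the cholesterol enzymes lie above 0 with both. On the DMSO arrays the collagens lie between -0.26 and 0.13, a range that overlaps the arrays of both compounds.

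Genes of the TGF-beta family and of the contractile cytoskeleton were split. Of 17 genes of the TGF-beta family 7 were higher with DOM and 3 with MEHP. Inhbb, the beta B subunit of inhibin and activin, lay at 2.92, 4.00, 4.05 and 3.77 with MEHP, at 5.28, 5.91, 6.02 and 5.69 with DOM and at 3.33, 4.17, 4.56 and 4.41 with DMSO (2.04 ± 0.26, adjusted p = 0.000556). Smad6, an inhibitor of signalling by bone morphogenetic proteins, differed by 1.58 ± 0.27, but it was dim, and with normexp its difference was 0.81. The latent TGF-beta binding protein gene Ltbp2 differed by 1.28 ± 0.17 and the ligand Tgfb1 by 1.08 ± 0.13. Higher with MEHP were Fst, follistatin, which binds activin (-2.25 ± 0.34), the stress cytokine Gdf15 (-1.43 ± 0.17) and the ligand Tgfb2 (-1.03 ± 0.09). Tgfb2 was among the few genes that only MEHP had moved, with MEHP arrays from 1.38 to 1.57, DOM arrays from 0.35 to 0.61 and DMSO arrays from 0.46 to 0.72. Id3, a transcription factor induced by bone morphogenetic proteins and chosen after its values were seen, was above DMSO with both compounds and higher with DOM (2.13 ± 0.21).

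In 16 contractile genes and targets of YAP and SRF, 3 were higher with MEHP and 2 with DOM. Ccn2, the matricellular target of YAP, lay at 6.56, 6.20, 6.06 and 5.86 with MEHP and at 5.07, 3.75, 3.84 and 3.66 with DOM (-2.09 ± 0.30), and the DMSO arrays lay between 4.85 and 6.36. Ankrd1 (-1.70 ± 0.17), a further YAP target, and Cnn1, calponin (-1.70 ± 0.14), showed the same order. The myosin light chain Myl9 (1.41 ± 0.12) and smooth muscle actin, Acta2 (0.80 ± 0.11), went the other way, with Acta2 at 4.52 to 4.64 with MEHP and 5.17 to 5.59 with DOM. In the insulin-like growth factor group Igf1 (2.19 ± 0.36), the adaptor Irs1 (1.55 ± 0.12) and the binding protein gene Igfbp4 (0.83) were higher with DOM and the RNA-binding protein gene Igf2bp1 (-0.88) with MEHP. With DOM, Irs1 was called above DMSO (1.33) and Igf2bp1 below it (-0.71). Igf1 (-1.30 with MEHP, 0.89 with DOM) and Igfbp4 (-0.67 and 0.17) were called against DMSO with neither compound.

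Secreted and induced defence genes also went both ways. Of 16 inflammatory secreted genes 5 were higher with MEHP and 4 with DOM. Saa3, an acute phase protein, lay at -2.72, -2.99, -1.98 and -2.03 with MEHP while no DOM array had it well above background, a difference of at least 4.25-fold, and the DMSO arrays lay highest, from -0.61 to -0.03. Saa3 entered the test through the MEHP arrays alone, and with normexp its measured difference was -0.72. Cxcl10, an interferon-induced chemokine, ran from 1.13 to 1.62 with MEHP and from -1.15 to -0.43 with DOM (-2.09 ± 0.19), and Il33, an alarmin, differed by -1.66 ± 0.31. Cxcl12, the chemokine that CXCR4 binds, was higher with DOM (3.03 ± 0.48), at 0.68, 2.21, 0.16 and 1.84 with MEHP and at 3.40, 4.76, 4.74 and 4.12 with DOM, with DMSO arrays from 1.39 to 3.08. Cx3cl1, a membrane-bound chemokine, differed by 0.82 ± 0.15 and the neutrophil chemokine gene Cxcl1 by 0.89 ± 0.22. Both inhibitors of NF-kappaB signalling in the list were called in opposite directions, Tnfaip3 higher with MEHP (-1.40 ± 0.21) and Nfkbia higher with DOM (0.67 ± 0.18), the latter lost without MEHP replicate 1, DOM replicate 2 or DOM replicate 4.

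Of 19 interferon-induced genes 7 were higher with MEHP and 1 with DOM. Both compounds lay below the vehicle in the median (-0.37 with MEHP and -0.57 with DOM), with 4 and 9 genes called below DMSO. Oasl1, a protein of the oligoadenylate synthetase family, ran from 1.80 to 2.34 with MEHP and from -0.66 to -0.09 with DOM (-2.48 ± 0.17), and Isg15, a ubiquitin-like modifier, differed by -0.93 ± 0.15. The related Oasl2 (-0.92 ± 0.14) and the RNA sensor gene Ifih1 (-0.91 ± 0.16) had the same order. Bst2, tetherin, was the member higher with DOM (0.61 ± 0.09), a call lost without DOM replicate 4. With normexp the count of 7 fell to 3. In MHC class I antigen presentation 1 of 11 genes was called, the peptide transporter subunit Tap2, higher with DOM. Among ERK feedback and immediate early genes 5 of 20 were higher with MEHP and 4 with DOM. The ETS factors Etv4 (-1.54 ± 0.17) and Etv5 (-1.0 ± 0.14) and the gene Ier3 (-0.85 ± 0.16) were lower with DOM, and Egr2, a zinc finger factor, was lower with MEHP (1.18 ± 0.14), which differed from DMSO by -0.78. Jun, a subunit of AP-1, was lower with DOM (-1.04 ± 0.25) and Egr1, a zinc finger factor of the same family as Egr2, higher (0.71 ± 0.19), a call lost without MEHP replicate 3 or 4 or DOM replicate 2. The count higher with DOM fell to 1 without MEHP replicate 4. Of 15 clock genes Dbp (-1.08 ± 0.22), Ciart (-1.04 ± 0.18) and Nr1d1 (-1.0 ± 0.14) were higher with MEHP and Hlf (1.13) with DOM. Hlf was well above background on 2 of the 4 MEHP arrays and entered the test through the DOM arrays alone. With normexp neither Hlf (0.26) nor Ciart (-0.53) was called. All arrays were taken at 48 hr, and without DOM replicate 1 the count higher with MEHP was 5. Of 19 p53 targets 3 were higher with DOM, led by Trp53inp1 (1.51 ± 0.13), a stress-induced regulator of cell death. Sesn1, a sestrin that restrains mTOR (0.61 ± 0.10), lost its call without MEHP replicate 3 or DOM replicate 4. The death receptor gene Fas (0.68 ± 0.21) lost its call without MEHP replicate 1, 3 or 4 or DOM replicate 1 or 4.

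Of the 20 Sertoli cell markers 11 were well above background on all 8 arrays, while Wt1, Amh, Fshr and Cldn11 were above it on none, so several defining markers were not detected with either compound. Among the 13 tested markers 3 were higher with each compound. Kitl, stem cell factor, lay at -1.12, -2.25, -1.47 and -2.19 with MEHP and at -2.26, -3.38, -3.49 and -3.21 with DOM (-1.33 ± 0.33), and the DMSO arrays, from -2.88 to -1.71, lay across both. Sox9, which directs Sertoli cell fate, differed by -0.98 ± 0.16 and was not called with normexp at -0.27, and the ligand Dhh differed by -0.89 ± 0.14. Beside Inhbb, Inha, the alpha subunit of inhibin (0.71 ± 0.13, 0.39 with normexp), and Gata4, a factor of gonadal somatic cells (0.66 ± 0.21), were higher with DOM, the last a call that was lost when any of 7 of the 8 arrays was left out. For the other cell types of the testis, 1 of 6 Leydig cell markers on the array, 1 of 8 germ cell, 2 of 4 macrophage and 2 of 5 endothelial cell markers were above background on all 8 arrays, and of those tested none was called.

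At the tight junction Cxadr, an adhesion molecule, was higher with MEHP (-0.99 ± 0.22), while 9 of the 11 tested genes of the blood-testis barrier were not called. In retinoid metabolism Dhrs3, which reduces retinal to retinol, lay at -1.02, -0.66, -0.51 and -0.80 with MEHP and at 0.73, 0.28, -0.01 and 1.19 with DOM (1.29 ± 0.24), and it was MEHP that differed from DMSO (-1.75). Aldh1a1, which makes retinoic acid, was above DMSO with both compounds and fell just short of a call between them (-0.57 ± 0.11, adjusted p = 0.00474). Of 5 genes of the aryl hydrocarbon receptor Aldh3a1, an aldehyde dehydrogenase, was called and differed by 0.64 ± 0.13, a call lost without DOM replicate 4, and none of 6 metallothionein and zinc transporter genes was called.

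Genes that MEHP moved from the vehicle and DOM did not were few. Of the 178 genes tested between the compounds that MEHP moved from DMSO, 108 were called in the same direction with DOM. Of the remaining genes 34 were called between the compounds and not called against DMSO with DOM, 31 were not called between the compounds, and 5 were called against DMSO in opposite directions. Among tested genes 1.03% were called above DMSO with MEHP and 0.502% below it, against 8.8% and 9.76% with DOM. Ngef, a guanine nucleotide exchange factor, lay at -0.06, -0.67, -0.75 and -0.65 with MEHP, at -1.84, -2.86, -2.43 and -2.15 with DOM and at -1.36, -2.03, -1.79 and -2.17 with DMSO (-1.79 ± 0.23 between the compounds). Tubb2b, a beta tubulin, ran from 4.51 to 4.82 with MEHP, above the 3.46 to 4.02 with DOM and the 3.38 to 4.05 with DMSO. Slc38a4, an amino acid transporter, was above DMSO by 1.22 with MEHP and by 0.27 with DOM, but was dim and not called with normexp. Siglecg, a lectin (0.83 above DMSO with MEHP), and Myom2, a muscle M-band protein (0.80), followed.

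In the other direction Tenm4, a teneurin, lay at -0.02, 0.47, 0.60 and 0.39 with MEHP, at 1.14, 2.48, 2.54 and 1.35 with DOM and at 1.22, 1.85, 2.19 and 1.74 with DMSO (1.52 ± 0.33). The guidance molecule Sema5a showed the same order (1.75 ± 0.44). Fgl1, a fibrinogen-like protein, and Myl4, a myosin light chain, were called below DMSO with MEHP and above it with DOM, as Aspn was, and differed by 2.19 ± 0.21 and 1.45 ± 0.16. Fgl1 was dim and its difference with normexp was 0.76. Psrc1, a spindle protein, differed from DMSO by 0.68 with MEHP and by -0.95 with DOM, and the genes of this and the preceding paragraph were chosen after their values were seen.

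**Figure D5:**
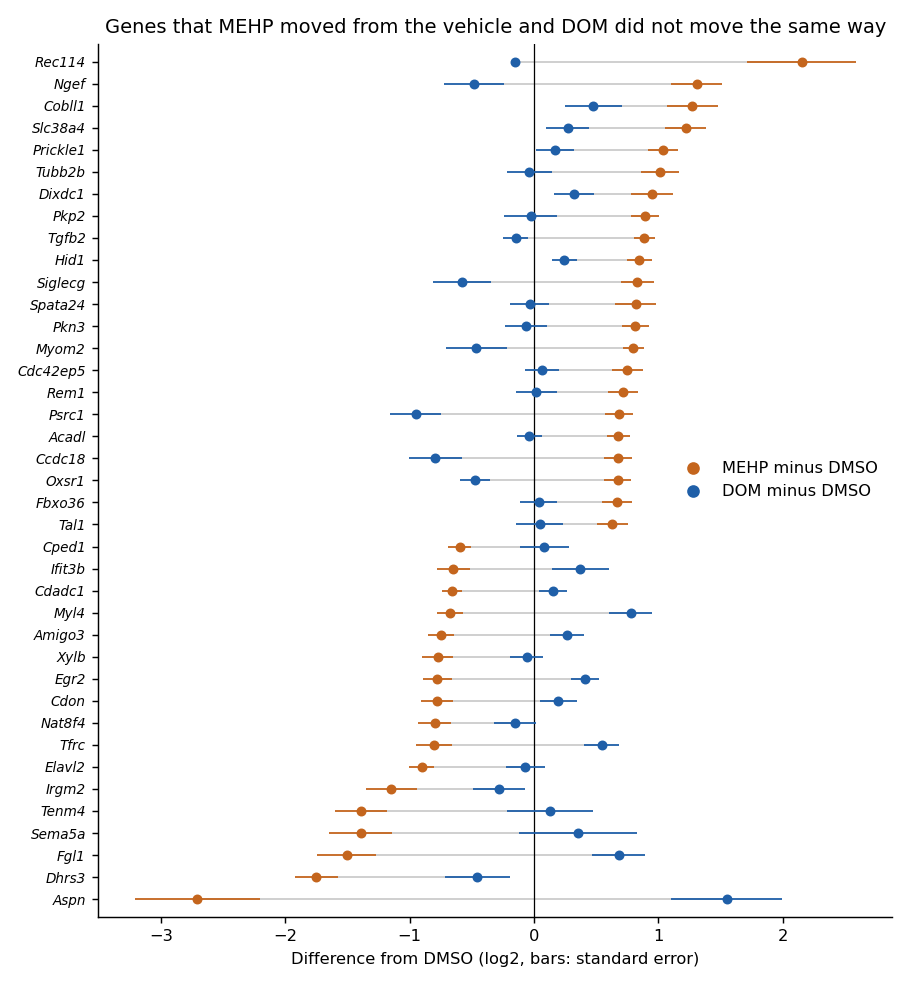
Difference from DMSO (log2, horizontal axis; bars are standard errors) with MEHP and with DOM for the 39 genes that were called against DMSO with MEHP, not called in the same direction with DOM, and called between the compounds. The MEHP values lie between -2.71 and 2.15 and most DOM values lie near 0; Rec114 has no bar with DOM because it was not tested there.

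The largest single differences included genes outside these groups. Ptgdr2, a receptor of prostaglandin D2, was higher with DOM (3.13 ± 0.32, 1.63 with normexp). A further pair had no MEHP array well above background, Gtf2a1l, a germ cell form of a general transcription factor (at least 2.75-fold), and Itih3, a carrier of hyaluronan (at least 3.295-fold). Both entered the test through the DOM arrays alone, and with normexp their differences were 0.64 and 0.59. Higher with MEHP was Slamf9, a receptor of the SLAM family, at 0.80, 0.38, 0.60 and 0.71 with MEHP, at -2.67, -3.41, -2.02 and -3.57 with DOM and at 0.89, 0.67, 0.56 and 0.55 with DMSO (-3.54 ± 0.31, 11.6-fold). It had the largest difference in that direction. Dennd2d, a regulator of Rab proteins (-2.64 ± 0.21, -1.08 with normexp), and Tcstv1, which no DOM array had well above background (at least 2.55-fold), followed. Tcstv1 and Dennd2d entered the test through the MEHP arrays alone. Dennd2d was well above background on 2 of the 4 DOM arrays, and Tcstv1 was not called with normexp at -0.53. Deptor, an inhibitor of mTOR chosen after its values were seen, was above DMSO with both compounds and more so with DOM (1.28 ± 0.14).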

How the data were processed

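Total RNA of TM4 cells was measured on 1-colour Agilent mouse arrays. Per the file headers the deposited intensity is the processed signal of Feature Extraction 11.5.1.1, background-subtracted by the scanner software, with flags for spots above background, outlying or saturated. The authors also deposited a log2 table scaled by percentile shift, which was used as an alternative.

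From the processed signal, floored at 1, log2 was taken and the 75th percentile of the non-control spots of each array subtracted. Spots marked as outliers were dropped and replicate spots averaged per probe. Testing required, in at least 1 group, a well-above-background mark and a signal not under the 20th percentile on each of its arrays. MEHP and DOM were compared with limma 3.58.1 in R 4.3.3, on these 8 arrays alone, with Benjamini-Hochberg adjustment over all 24092 tested probes, and a gene took its brightest probe. The difference from DMSO was fitted separately for each compound. The script was tested on simulated data. The number of arrays limits the precision. The methods call the 4 arrays of a group biological replicates.

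Same-numbered MEHP and DOM arrays deviated together, with correlations of 0.61, 0.19, 0.40 and 0.37, so the numbers were taken as pairs from the data, while the main comparison had no block. Other alternatives changed the background correction, normalization, filter, outlier spots, variance model, arrays and probes, and after the data were seen replicate 1 of both compounds or the fourth DMSO array was left out.

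The genes, 35 gene lists and 6 marker lists were chosen with earlier results of these data known. Named genes were 12 set genes, the 10 called genes of largest difference in each direction without overlap, and up to 4 such genes from each list and direction. Genes given beyond these, among them Mcm5, Hmgcs1, Gclm, Gclc, Nfe2l2, Atf4, Cdkn1a, Maff, Gstm3, Timp3, Kitl and the genes that MEHP alone moved, were chosen after their values were seen. Promoters came from RefSeq (GRCm38.p6) and were matched by symbol. A few genes that this rule selects are not reported here.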

Additional observations from a re-analysis of the deposited data

Results flagged for a closer look

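In 24 of the 326 groups of 4 arrays checked for the named genes, 1 array lay apart from the other 3, by the gap to its nearest neighbour as a share of the group's range (Dixon's test at its 95% critical value). Chance flags about 1 group in 20. On MEHP array 1 these were Plk1 (0.882), Mcm5 (0.892), H1f5 (0.863), Nqo1 (0.938), Igf2bp1 (0.838) and Ngef (0.847), which lay above the other MEHP arrays, and Col3a1 (0.927), Col5a1 (0.876), Thbs2 (0.894), Ogn (0.848), Adamts2 (0.83) and Gata4 (0.873), which lay below them. On DOM array 1 Ccn2 (0.874) and Psrc1 (0.906) lay above the other DOM arrays, and Ppara (0.834), Col6a1 (0.987) and Ogn (0.883) below them. The remaining ones were Hmox1 on MEHP array 3 (0.872), Cxadr on MEHP array 2 (0.83), Ciart (0.988) and Ltbp2 (0.886) on MEHP array 4, Hk2 on DOM array 2 (0.937), Aldoc on DOM array 3 (0.98) and Hlf on DOM array 4 (0.933). Replicate 1 arrays thus held 17 of the 24.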

How the results depend on the processing

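No gene called in common with an alternative had the opposite sign there. The number of called genes lay between 1860 and 2225 when 1 array was left out, with 874 to 1029 higher with DOM and 986 to 1212 higher with MEHP. With the replicate number as a block it was 2113, of which 2064 were shared with the 2071, and the block changed none of the calls of the 148 named genes. Normexp background correction gave 1437 genes in all and 642 higher with DOM, and kept 126 of the 148 calls. Among the lost calls were Acsl1, Acacb, Cxcl1, Ifih1, Egr2, Sesn1, Fas, Maff, Gata4, Aldh3a1 and Tcstv1. Without replicate 1 of both compounds, an alternative added after seeing the data, 2003 genes were called and 144 of the 148 calls kept. Slide 1 alone, with 2 arrays of each compound, gave 796 genes, 347 higher with DOM and 449 with MEHP, and 19 replication genes, 3 NRF2 targets, 1 cholesterol enzyme, 1 collagen and 1 PPAR target higher with MEHP, 0 PPAR targets higher with DOM, and 6 and 0 ATF4 targets higher with MEHP and DOM. Quantile normalization gave 5 cholesterol enzymes and 9 glutathione transferases higher with DOM, and leaving out 1 array gave 2 to 4 and 5 to 8. Reversed signs were seen only among named genes that were not called. When 1 array was left out Pdk4 lay between -0.35 and 0.04, Ppara between -0.05 and 0.23, Pparg between -0.13 and 0.06 and Gclc between -0.01 and 0.11. Fdps was 0.15 with quantile normalization, and without replicate 1 of both compounds Pparg was 0.01 and Gclc -0.03. The cause was not tested. Signals near background, where normexp shrank differences, limit the dim genes.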
